A study of Mus musculus with 15 samples.

Results

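A set of 10 genes of the IL-6 family, 5 cytokines (*Il6*, *Osm*, *Clcf1*, *Lif* and *Il11*) and 5 receptors (*Il6ra*, *Il6st*, *Osmr*, *Lifr* and *Il11ra1*), was followed in ear RNA of mice with and without *Socs3* in keratinocytes. They were chosen by symbol, and all 10 were found among the 21110 genes measured in each mouse. The data are RNA-Seq values of 15 C57BL/6 mice, 1 library per mouse: 4 wild type (WT) and 4 *Socs3* cKO at 2 weeks after birth, and 3 WT and 4 *Socs3* cKO at 10 weeks. In *Socs3* cKO the gene is lost in cells that use keratin 5, the basal keratinocytes of the epidermis and follicle, and in their descendants. Ear cells of other origin keep it. Whether the WT mice carried any engineered allele is not given in the sources used here, and all mice were kept free of specific pathogens. RNA came from whole ear specimens, although the labels also name keratinocytes as the source. The keratinocyte markers *Krt5*, *Krt14*, *Krt1*, *Krt10* and *Trp63* summed to 4748 to 11571 FPKM (reads scaled to the length of the gene and the mapped reads of the library) per mouse, but the fibroblast markers *Col1a1*, *Col1a2*, *Pdgfra*, *Dcn* and *Lum* summed to 3166 to 9862 FPKM, so the samples are treated as ear tissue. In such tissue, fewer cells of a type and less RNA per cell cannot be told apart.

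IL-6 family cytokines signal through gp130, the shared chain encoded by *Il6st*. IL-6 and IL-11 first bind their own receptor chains (*Il6ra*, *Il11ra1*) and then gp130, LIF and the product of *Clcf1* use gp130 with the chain encoded by *Lifr*, and oncostatin M uses gp130 with the chain encoded by *Osmr*. The receptor complex activates JAK kinases and the transcription factor STAT3, which induces *Socs3*. SOCS3 protein binds gp130 and JAK and ends the signal, and in skin the family is known for roles in wound repair and inflammation of the epidermis.

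Differences are given as log2(FC), the difference of the mean log2(FPKM + 0.1) between 2 groups of mice. A differentially expressed gene (DEG) had an adjusted p below 0.01 in limma, with Benjamini-Hochberg adjustment over all genes tested, and |log2(FC)| of at least 1. Genes were tested where the FPKM was at least 1 in at least 3 of the mice compared. Depth was estimated from the steps between the lowest values at 12800000 to 18300000 mapped reads per mouse. In all, 3 libraries stood apart: WT replicates 1 and 3 at 10 weeks and *Socs3* cKO replicate 1 at 2 weeks read long genes less than the other libraries did, with a trend of -0.88, -0.72 and -0.59 log2 units per 10-fold gene length, against -0.32 to 0.49 in the other 12. The WT mice at 10 weeks also had fewer genes at 0 (1414 to 3176) than the other groups (4044 to 4423). Each group has library numbers of its own in the labels, with no number range shared between groups, so a batch of libraries cannot be told apart from the condition. As the targeted gene, *Socs3* had an FPKM of 9.71, 10.2, 10.3 and 10.3 in WT and 1.25, 9.32, 12.6 and 3.51 in *Socs3* cKO at 2 weeks, and of 2.76, 4.81 and 2.02 against 36.5, 29.8, 47.7 and 32.4 at 10 weeks. A whole-gene FPKM does not separate the deleted part from the rest, so these values do not check the genotype.

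Promoters of 8 of the 10 members were found in RefSeq (GRCm38.p6), as windows of 250 bases before to 50 after a transcription start. The windows below belong to the DEGs at 10 weeks, described further on, in which one of the searched motifs was found. They are printed 5′ to 3′ on the gene's strand in lower case. Capitals mark matches to the AP-1 letters TGANTCA and, in *Il6* alone, a match on the other strand to the C/EBP core TTGCNNAA, which reads TTGTGCAA on the strand shown.
Il6, chr5:30012864-30013163, plus strand: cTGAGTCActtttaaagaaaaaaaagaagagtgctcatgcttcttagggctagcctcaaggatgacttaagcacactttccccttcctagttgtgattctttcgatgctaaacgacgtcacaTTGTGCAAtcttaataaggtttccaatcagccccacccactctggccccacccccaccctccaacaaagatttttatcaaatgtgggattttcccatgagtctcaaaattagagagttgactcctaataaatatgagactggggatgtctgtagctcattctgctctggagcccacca
Il11, chr7:4778092-4778391, minus strand: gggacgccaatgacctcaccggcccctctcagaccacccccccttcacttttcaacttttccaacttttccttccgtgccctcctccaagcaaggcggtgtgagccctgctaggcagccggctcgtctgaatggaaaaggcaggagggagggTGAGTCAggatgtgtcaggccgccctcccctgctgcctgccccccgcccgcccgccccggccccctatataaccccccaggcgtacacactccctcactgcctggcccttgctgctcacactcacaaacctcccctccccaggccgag
Osmr, chr15:6874264-6874563, minus strand: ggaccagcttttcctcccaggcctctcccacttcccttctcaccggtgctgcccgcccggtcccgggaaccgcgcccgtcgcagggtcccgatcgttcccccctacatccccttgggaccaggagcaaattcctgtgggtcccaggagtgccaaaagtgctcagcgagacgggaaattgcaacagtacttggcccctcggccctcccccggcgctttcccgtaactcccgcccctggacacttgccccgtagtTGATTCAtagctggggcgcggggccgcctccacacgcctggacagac
Both strands were searched. The AP-1 match began at position -249 from the start in *Il6*, at -98 in *Il11* and at 4, just after the start, in *Osmr*, and *Lif* had another at -228. In all, 4 of the 11 windows of members held the AP-1 letters, against 7.81% of 32851 windows in the whole table. The C/EBP core was found in 1 of the 11 windows, against 10.8% of all windows. Neither the STAT letters TTCNNNGAA, found in 8.3% of all windows, nor the CRE letters TGACGTCA, found in 1.79%, were in any of the 11, whereas the *Socs3* window held TTCTTAGAA at -154. A match to letters is not a bound site.

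*Il6* showed the largest difference of the 10 members. It lies on chromosome 5 of mm9 (30339701 to 30346508, 5 exons, no 32-base word shared with another gene). At 2 weeks its FPKM was 0.0781, 0.0884, 0.0665 and 0.162 in WT, which corresponds to 1 or 2 reads per mouse, and 0.684, 0.0684, 1.35 and 0.123 in *Socs3* cKO, or 9, 1, 20 and 2 reads. *Socs3* cKO replicates 1 and 3 thus lay above every WT mouse while the other two lay among them, and the exact permutation test over mice gave p = 0.229 (smallest possible 0.0286). *Il6* was too low for the limma test at 2 weeks. At 10 weeks its FPKM was 0.618, 0.0801 and 0.0696 in WT, or 9, 1 and 1 reads, and 43.7, 42.8, 82.2 and 109 in *Socs3* cKO, or 637, 678, 1205 and 1713 reads. Every *Socs3* cKO mouse lay far above every WT mouse, and the ratio of the mean FPKM was 271. The log2(FC) was 7.84 (SE 0.52, adjusted p = 2.14e-05, limma). *Il6* passed the filter at 10 weeks only through the *Socs3* cKO mice. The fold rests on 11 reads in the 3 WT mice together, and its fitted size was 5.72 to 8.60 over the alternatives in which all mice were kept. From the lowest of the 10 members in WT, *Il6* went to a mean of 69.4 FPKM in *Socs3* cKO at 10 weeks, in the same range as *Il11ra1*, the member with the highest level in the other 3 groups.

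*Osm* encodes oncostatin M, a cytokine made largely by leukocytes. The 8 mice at 2 weeks all had low values, 0.445, 0.275, 0.310 and 0.252 FPKM in WT and 0.355, 0.142, 0.454 and 0.0958 in *Socs3* cKO, and the groups overlapped (exact permutation p = 0.457). At 10 weeks WT mice had 0.428, 0.332 and 0.433 FPKM and *Socs3* cKO mice 2.81, 2.62, 3.58 and 3.54. The groups did not overlap, and *Osm* was up-regulated with a log2(FC) of 2.70 (SE 0.26, adjusted p = 0.000173, limma), a ratio of means of 7.89. As with *Il6*, it passed the filter only through *Socs3* cKO.

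*Clcf1* encodes a ligand of the ciliary neurotrophic factor receptor complex, which contains gp130 and the LIF receptor. It was the only member that was a DEG at both ages, and its direction turned. At 2 weeks its FPKM was 10.3, 11.3, 11.6 and 8.51 in WT and 1.20, 2.85, 3.30 and 2.13 in *Socs3* cKO. It was down-regulated there, with a log2(FC) of -2.17 (SE 0.30, adjusted p = 0.00125, limma). At 10 weeks the FPKM was 1.19, 1.15 and 1.70 in WT and 8.99, 7.28, 11.1 and 6.78 in *Socs3* cKO, an up-regulation of 2.57 (SE 0.25, adjusted p = 0.000188, limma). No WT value lay within the range of *Socs3* cKO at either age. Within WT the level fell with age from a mean of 10.4 to 1.35 FPKM, and within *Socs3* cKO it rose from 2.37 to 8.54, so that *Socs3* cKO at 10 weeks stood near WT at 2 weeks.

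*Lif* and *Il11* were low in all mice, from 0.0840 to 5.36 FPKM. *Lif*, whose product keeps stem cells undifferentiated in culture, had 1.06, 0.920, 1.21 and 1.19 FPKM in WT and 0.0840, 0.522, 0.481 and 0.485 in *Socs3* cKO at 2 weeks. All 4 *Socs3* cKO mice lay below WT (log2(FC) -1.42, SE 0.40), but the adjusted p of 0.0210 in limma missed the threshold, the exact permutation p was 0.0286, and *Lif* had passed the filter only through WT. At 10 weeks *Lif* was not tested by limma, with 0.355, 0.807 and 0.496 FPKM in WT and 1.28, 1.02, 0.922 and 0.783 in *Socs3* cKO, where the ranges overlapped (exact permutation p = 0.114). *Il11*, whose product acts on stromal cells, had overlapping values at 2 weeks (0.455 to 1.28 FPKM in WT, 0.282 to 1.08 in *Socs3* cKO). The older mice had 2.96, 4.02 and 5.36 FPKM in WT and 1.34, 0.982, 1.02 and 0.619 in *Socs3* cKO, and at that age it was the one member that was down-regulated (log2(FC) -1.95, SE 0.31, adjusted p = 0.00193, limma). Without WT replicate 3 this was -1.75 with an adjusted p of 0.0125, and with the trends in gene length and GC content removed it was -1.36 with an adjusted p of 0.0107, and neither met the threshold. At 10 weeks *Il11* passed the filter only with the WT mice, since in *Socs3* cKO only replicates 1 and 3 reached 1 FPKM. With no filter its adjusted p was 0.00382 (limma).

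**Figure D1:**
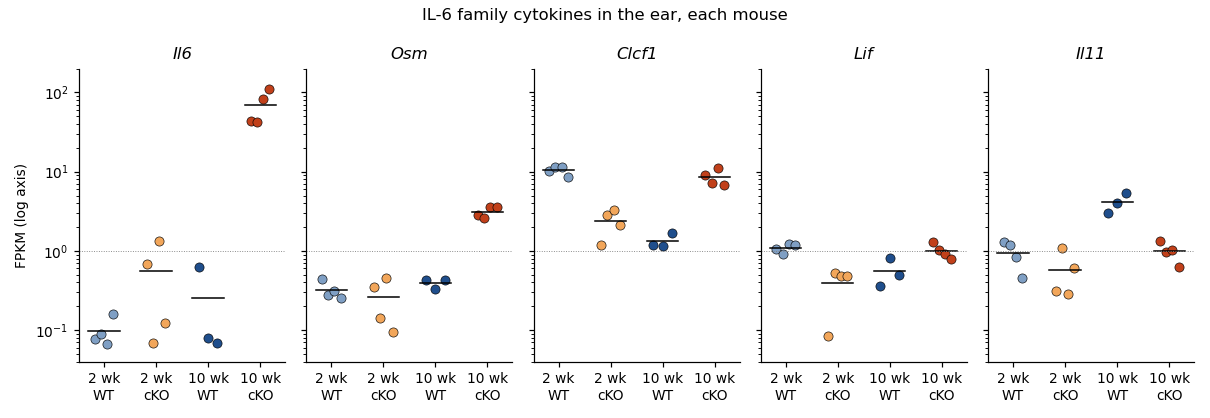
FPKM of the 5 cytokine genes on a log axis in each of the 15 mice, with 1 point per mouse, a bar at the group mean and a dotted line at 1 FPKM. *Il6* in the 4 *Socs3* cKO mice at 10 weeks sits between 42.8 and 109 FPKM while the other 11 mice are at or below 1.35, *Clcf1* has opposite orders of the genotypes at the 2 ages, and *Il11* is highest in WT at 10 weeks.

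Among the receptors, *Osmr* separated the genotypes at both ages with little spread among mice. At 2 weeks its FPKM was 5.48, 5.32, 4.87 and 5.10 in WT and 10.5, 9.25, 10.3 and 10.1 in *Socs3* cKO. The ratio of the means was 1.94, and the log2(FC) of 0.94 (SE 0.13, adjusted p = 0.00121, limma) lay just under the threshold of 1, so *Osmr* was not a DEG there although no values overlapped. It was a DEG with scaling by the median of ratios (log2(FC) 1.14, adjusted p = 0.00151) or quantile normalization (1.28, adjusted p = 0.000558), whereas with the trends in gene length and GC content removed the difference was smaller, 0.61 (adjusted p = 0.00890). At 10 weeks it had 4.24, 4.63 and 3.53 FPKM in WT and 9.90, 10.0, 14.3 and 13.2 in *Socs3* cKO, and it was up-regulated by 1.49 (SE 0.21, adjusted p = 0.00107, limma). The difference between the ages was 0.55 (SE 0.23, adjusted p = 0.0606), past the threshold in neither size nor p. *Osmr* lies on chromosome 15 of mm9 (6763577 to 6824313, 18 exons), and each mouse had an estimated 265 to 1098 reads in it.

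*Lifr*, which lies near *Osmr* on chromosome 15 (7079559 to 7147489), was not a DEG at either age. Its FPKM was 8.41 to 9.23 in WT and 4.94 to 11.2 in *Socs3* cKO in the mice of 2 weeks (log2(FC) -0.47, 95% interval -1.05 to 0.12, adjusted p = 0.152, limma), and 4.66 to 7.45 against 6.31 to 9.25 at 10 weeks (0.41, -0.09 to 0.92, adjusted p = 0.167). Because both genes code for chains that pair with gp130, their FPKM was divided within each library. This cancels library scaling but not the trend with gene length, as the exons span 4835 bases in *Osmr* and 10330 in *Lifr*. The ratio of *Osmr* to *Lifr* was 0.559 to 0.604 in WT and 0.826 to 2.08 for *Socs3* cKO at 2 weeks, and 0.622 to 0.756 against 1.07 to 2.09 at 10 weeks. At both ages every *Socs3* cKO mouse had a higher ratio than every WT mouse (exact permutation p = 0.0286 at 2 weeks and 0.0571 at 10 weeks, each the smallest its design allows, so 3 mice against 4 cannot reach 0.05). The ratio of *Osmr* to *Il6st*, its own partner chain, overlapped between the genotypes at 2 weeks (WT 0.179 to 0.221, *Socs3* cKO 0.181 to 0.656) and at 10 weeks (WT 0.202 to 0.246, *Socs3* cKO 0.191 to 0.420), with exact permutation p = 0.0857 and 0.514. *Il6st* to *Lifr* was 2.53 to 3.37 against 3.03 to 5.51 at 2 weeks (exact permutation p = 0.0857), but at 10 weeks it separated the genotypes as *Osmr* to *Lifr* did, with 3.07 to 3.21 in WT and 4.98 to 6.25 in *Socs3* cKO (exact permutation p = 0.0571). *Il6ra* to *Il6st* was lower in every *Socs3* cKO mouse at 2 weeks, 0.0879 to 0.399 against 0.550 to 0.700 (exact permutation p = 0.0286), and overlapped at 10 weeks (0.0431 to 0.299 in WT, 0.285 to 0.486 in *Socs3* cKO, exact permutation p = 0.114). The lowest *Il6ra* to *Il6st* ratio at each age, 0.0879 and 0.0431, came from a library that read long genes less. The part of the length trend in these ratios was not tested. Adjusted over the 8 tests of ratios, the exact permutation p was 0.114 or more for each ratio.

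*Il6st*, the shared gp130 chain, was at 30.5, 29.7, 23.2 and 23.1 FPKM in WT and 16.0, 51.1, 21.2 and 31.7 in *Socs3* cKO at 2 weeks, with a log2(FC) of 0.04 (95% interval -0.72 to 0.81, adjusted p = 0.916, limma). At 10 weeks it was 17.2, 22.9 and 14.97 FPKM in WT and 51.7, 46.3, 45.4 and 31.4 in *Socs3* cKO, without overlap, and it was up-regulated by 1.24 (SE 0.22, adjusted p = 0.00293, limma). This call was near its threshold. Without WT replicate 1 or 3 the adjusted p was 0.0136 or 0.0154, and with median-of-ratios scaling, quantile normalization or removal of the length and GC trends the log2(FC) was 0.98 in each case, under the required 1.

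*Il6ra*, the chain that binds IL-6, varied widely among mice of one group. At 2 weeks it was 16.8, 16.6, 14.0 and 16.2 FPKM in WT and 1.41, 18.0, 8.44 and 10.5 in *Socs3* cKO, and it was not a DEG (log2(FC) -1.18, SE 0.66, adjusted p = 0.161, limma). At 10 weeks it was 1.47, 6.85 and 0.646 FPKM in WT and 15.5, 19.9, 22.1 and 8.95 in *Socs3* cKO, which did not overlap, and it was up-regulated by 2.98 (SE 0.64, adjusted p = 0.00677, limma). The 3 lowest values of *Il6ra*, 0.646 to 1.47 FPKM, were those of the 3 libraries that read long genes less. With the trends in length and GC content removed, the difference at 10 weeks was 2.999 (adjusted p = 0.00551, limma). This removal took off only the mean trend of genes of like length and GC content, so a stronger effect of the library on *Il6ra* would remain. Among libraries with a weaker trend, WT replicate 2 at 10 weeks (trend -0.02) had 6.85 FPKM, and *Socs3* cKO replicate 4 at 10 weeks (-0.17) and at 2 weeks (-0.04) had 8.95 and 10.5. At a trend of 0.17, WT replicate 3 at 2 weeks had 14.0 FPKM and *Socs3* cKO replicate 1 at 10 weeks had 15.5. The part of the library trend in the *Il6ra* result was not tested. The call also did not hold when some mice were left out, with a log2(FC) of 2.80 (adjusted p = 0.0279) without WT replicate 1, 2.26 (0.0290) without WT replicate 3, and 2.98 (0.0143), 2.86 (0.0163) and 2.81 (0.0157) without *Socs3* cKO replicates 1, 2 and 3. With no filter on low values the adjusted p was 0.0123.

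**Figure D2:**
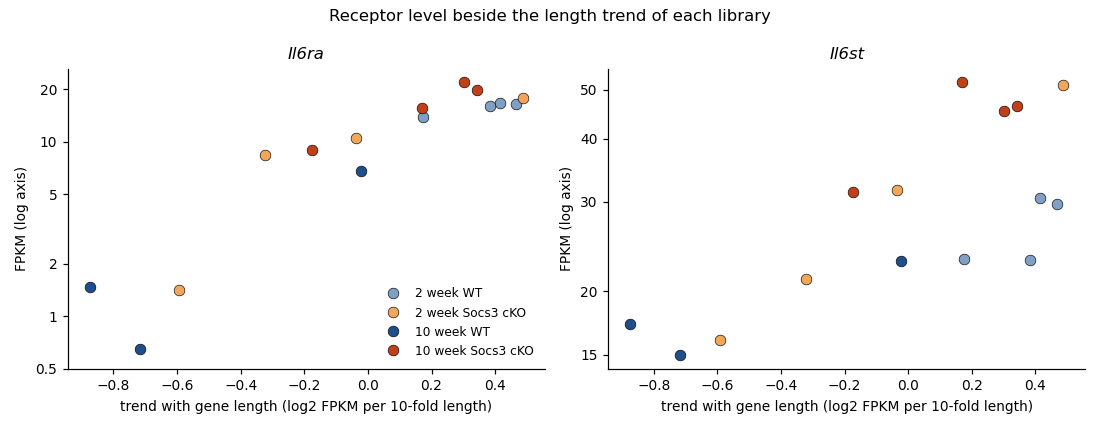
FPKM of *Il6ra* and *Il6st* (log axes) in each library against the trend of that library with gene length (log2 units per 10-fold length, relative to the mean of all libraries). The 3 libraries with a trend below -0.5 have the 3 lowest values of both genes, 0.646 to 1.47 FPKM for *Il6ra* and 14.97 to 17.2 FPKM for *Il6st*, while the 4 *Socs3* cKO mice at 10 weeks lie between 31.4 and 51.7 FPKM for *Il6st*.

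*Il11ra1*, which encodes the chain that binds IL-11, was the most abundant receptor in every group, with values at 2 weeks of 73.3 to 83.6 FPKM in WT and 61.2 to 92.9 in *Socs3* cKO (log2(FC) -0.09, 95% interval -0.42 to 0.25, adjusted p = 0.634, limma). At 10 weeks it was 106, 96.4 and 179 FPKM in WT and 59.7, 54.2, 49.6 and 107 in *Socs3* cKO, where replicate 4 lay among the WT values. The log2(FC) was -0.92 (SE 0.30, adjusted p = 0.0377, limma), and without *Socs3* cKO replicate 4 it was -1.17 (adjusted p = 0.00762). These levels are uncertain, since 56.0% of the 32-base words of *Il11ra1* also occur in other genes, foremost the near copy *Il11ra2*, and reads could be split among them. *Il11ra2* had a mean of 13.9 FPKM in WT and 13.8 in *Socs3* cKO at 2 weeks, and 17.6 and 11.2 at 10 weeks.

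**Figure D3:**
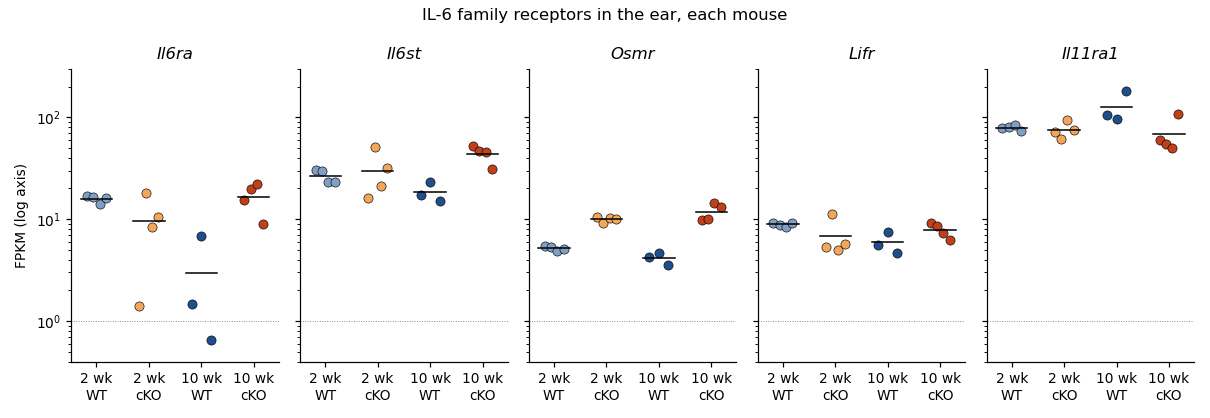
FPKM of the 5 receptor genes on a log axis in each of the 15 mice, with 1 point per mouse, a bar at the group mean and a dotted line at 1 FPKM. *Osmr* in *Socs3* cKO lies above WT at both ages with little spread, from 9.25 to 14.3 against 3.53 to 5.48 FPKM, while *Il6ra* spreads from 0.646 to 6.85 FPKM among the 3 WT mice at 10 weeks.

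Counted together, 8 of the 10 members were tested at 2 weeks. None was up-regulated, although 1 (*Osmr*) was higher at an unadjusted p under 0.05, and 1 (*Clcf1*) was down-regulated, while 7.24% of all 13524 genes tested were up-regulated and 7.19% down-regulated. The median log2(FC) was -0.58 over the 8 and -0.21 over all genes tested. At 10 weeks, 9 members were tested, of which 6 were up-regulated and 1 was down-regulated, against 12.5% and 2.43% of 13105 genes. The median was 1.49 over the 9 and 0.31 over all genes. For each of the 7 DEGs at 10 weeks the exact permutation test over mice gave p = 0.0571. This is the smallest value its design allows, so that test cannot reach 0.05 at 10 weeks. Because *Il6* and *Osm* were tested there only through their high values in *Socs3* cKO, the 6 of 9 does not describe all members. The 1 down-regulated member, *Il11*, has a like limit, as it passed the filter only with the WT mice, where it was high. Without WT replicate 3 at 10 weeks, 4 members in place of 7 were DEGs, and over all genes the share of DEGs fell too, from 14.9% to 5.76%. The shares over all genes depended on the scaling. At 10 weeks 8.19% were up-regulated and 4.81% down-regulated under median-of-ratios scaling, against 6.94% and 6.23% under quantile normalization, and at 2 weeks 4.08% and 8.68% with the trends in length and GC content removed. Median-of-ratios scaling moved the median of all genes at 10 weeks to 0.06 and at 2 weeks to -0.01, a shift of 0.25 at 10 weeks, and the direction of all 7 DEGs held with this scaling and with quantile normalization.

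**Figure D4:**
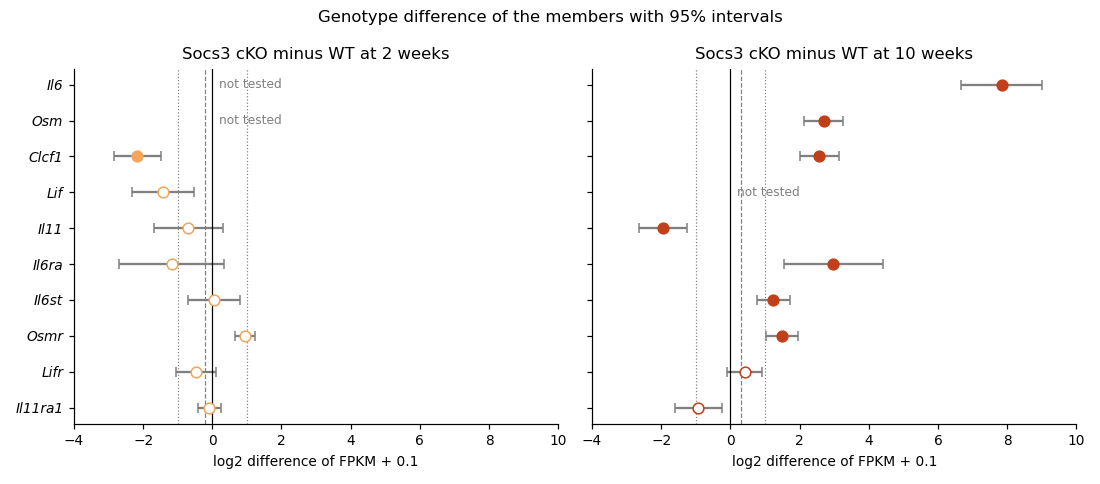
Genotype differences of the members as log2(FC) with 95% intervals at each age, with filled points for DEGs, open points for other tested members, dotted lines at the required size of 1 in either direction and a dashed line at the median of all genes tested. At 10 weeks 6 filled points lie above 1 and *Il11* lies below -1, whereas at 2 weeks the one filled point is *Clcf1* at -2.17.

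The interaction of genotype and age asks whether the genotype difference itself changed between the ages. It was past the thresholds for 5 of the 10 members, all in the direction of a higher difference at 10 weeks, against 18.0% of 13937 genes. None of the 10 was past them in the other direction, against 6.55% of genes, although 2 (*Il11* and *Il11ra1*) lay there at an unadjusted p under 0.05. Both were past the thresholds in that direction under other settings, *Il11* with quantile normalization (-2.23, adjusted p = 0.00352) or a pseudocount of 1 (-1.04, adjusted p = 0.00918) and *Il11ra1* with the trends in length and GC content removed (-1.80, adjusted p = 0.00787). The balance over all genes also turned with the scaling, to 12.3% higher and 11.2% lower under median-of-ratios scaling and 11.7% higher and 14.0% lower under quantile normalization. *Il6* and *Osm* were tested here only through their high values in *Socs3* cKO at 10 weeks. *Lif* reached 1 FPKM only in WT at 2 weeks and in *Socs3* cKO at 10 weeks, the groups whose high values raise its interaction. The 5 of 10 therefore does not describe all members. The 5 were *Il6* (6.62, adjusted p = 0.000203), *Clcf1* (4.74, adjusted p = 4.41e-06), *Il6ra* (4.15, adjusted p = 0.00565), *Osm* (3.02, adjusted p = 0.00037) and *Lif* (2.22, adjusted p = 0.00502), all by limma on the log2 scale. *Il6*, *Osm* and *Clcf1* stayed past the thresholds with each mouse left out in turn. *Lif* did not in 7 of 15 such fits (without WT replicates 1, 3 and 4 at 2 weeks, WT replicates 1 and 3 or *Socs3* cKO replicates 1 and 2 at 10 weeks, with values of 1.99 to 2.23 and adjusted p of 0.0104 to 0.0174). *Il6ra* did not in 9 (without any one WT mouse at 2 weeks, WT replicate 1 or 3 or *Socs3* cKO replicate 1, 2 or 3 at 10 weeks, with 3.44 to 4.21 and adjusted p of 0.0102 to 0.0208). In these fits the count was 3 to 7, since *Il6st* (1.5, adjusted p = 0.00303) and *Lifr* (1.15, adjusted p = 0.00267) passed without *Socs3* cKO replicate 2 at 2 weeks, and *Il11ra1* (-1.08, adjusted p = 0.00865) without *Socs3* cKO replicate 4 at 10 weeks. With quantile normalization *Osm* (1.78, adjusted p = 0.0222) and *Lif* (1.24, adjusted p = 0.0129) did not pass, nor did *Lif* with a pseudocount of 1 (0.97) or 0.01 (adjusted p = 0.0101).

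With age, 1 member rose and 2 fell in WT between 2 and 10 weeks, against 6.18% and 19.4% of all genes. The excess of falling genes depended on the scaling, with 11.1% rising and 12.5% falling under median-of-ratios scaling and 12.3% and 11.3% under quantile normalization. *Il11* rose by 2.07 (SE 0.42, adjusted p = 0.00128), *Clcf1* fell by 2.87 (SE 0.29, adjusted p = 6.08e-06) and *Il6ra* fell by 2.99 (SE 0.75, adjusted p = 0.00504), all by limma. The *Il6ra* call did not hold without any one WT mouse at 2 weeks (-3.05 to -2.96, adjusted p = 0.0105 to 0.0128) or without WT replicate 1 or 3 at 10 weeks (-2.81 and -2.27, adjusted p = 0.0242 and 0.0387), and without WT replicate 3 the *Il11* value was 1.86 (adjusted p = 0.0101), which left *Clcf1* as the one call. With the trends in length and GC content removed *Il11ra1* also rose (1.22, adjusted p = 0.00976). In *Socs3* cKO, 3 members rose with age and none fell, against 2.01% and 1.53% of genes, and no member was lower at an unadjusted p under 0.05. The 3 were *Il6* (7.14, adjusted p = 9.78e-06), *Osm* (3.28, adjusted p = 1.67e-05) and *Clcf1* (1.87, adjusted p = 0.000595). *Il6* and *Osm* again entered this test only through the group in which they were high, so the 3 of 10 does not describe all members. Each of the 2 age comparisons shares its mice with the genotype comparisons above.

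Of 7 further cytokines and partner subunits of the family, 4 were high enough to be tested. *Cntf*, a neurotrophic cytokine, was up-regulated at 2 weeks (from a mean of 1.48 to 4.46 FPKM, log2(FC) 1.51, adjusted p = 0.00219, limma) and had means of 2.68 FPKM in WT and 2.61 in *Socs3* cKO at 10 weeks (95% interval of the log2(FC) -0.82 to 0.81, adjusted p = 0.997). None of the 4 was a DEG at 10 weeks, where 2 were lower at an unadjusted p under 0.05. Of 4 further receptors, 2 were tested, and *Cntfr*, the receptor for that cytokine and for the product of *Clcf1*, was down-regulated at 2 weeks from a mean of 18.9 to 1.89 FPKM (log2(FC) -3.75, SE 0.72, adjusted p = 0.00555, limma). At 10 weeks *Cntfr* had 1.87 FPKM in WT and 3.84 in *Socs3* cKO (adjusted p = 0.116). *Cntfr* and *Clcf1*, a receptor and its ligand, were thus both down-regulated in *Socs3* cKO at 2 weeks, and *Cntfr*, like *Clcf1*, fell with age in WT (log2(FC) -3.45, adjusted p = 0.00141, limma).

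Of 11 kinases, STATs, inhibitors and sheddases, 5 were up-regulated at 10 weeks, against 12.5% of all genes tested. *Socs3* rose from a mean of 3.20 to 36.6 FPKM (log2(FC) 3.54, adjusted p = 7.2e-05, limma), and *Jak2* (1.22, adjusted p = 0.00293), *Ptpn11*, a phosphatase that binds gp130 (1.13, adjusted p = 0.00741), *Jak1* (1.09, adjusted p = 0.00462) and *Stat3* (1.04, adjusted p = 0.00717) lay just above the required size. Median-of-ratios scaling shifted the median of all genes at 10 weeks by 0.25, which is more than *Jak2*, *Ptpn11*, *Jak1* or *Stat3* lay above 1. The calls of these genes under that scaling are not given here. At 2 weeks none of the 11 was a DEG, against 14.4% of all genes tested, and 5 were lower at an unadjusted p under 0.05. Of 16 known STAT3 target genes, 10 were up-regulated at 10 weeks, against the same 12.5%. Among them were *Icam1*, a leukocyte adhesion molecule (3.85, adjusted p = 0.00012), *Junb*, an AP-1 subunit (3.48, adjusted p = 1.93e-05), *Ccl2*, a monocyte chemokine (3.35, adjusted p = 0.000255), and the transcription factor *Cebpd* (2.85, adjusted p = 3.4e-05), all by limma. At 2 weeks 1 of the 16 was up-regulated, *Lcn2*, an iron-binding antimicrobial protein (2.96, adjusted p = 7.33e-05), and 1 was down-regulated, *Vegfa* (-1.85, adjusted p = 0.00688), which is named here after its value was seen. Over all genes tested at 2 weeks, 7.24% were up-regulated and 7.19% down-regulated. The median log2(FC) of the 16 was 1.91 at 10 weeks and -0.21 at 2 weeks, against 0.31 and -0.21 over all genes tested. Of the IL-20 group, cytokines of keratinocytes that use other receptors and STAT3, *Il24* was the one tested, and it rose at 10 weeks from 0.0444 to 2.73 FPKM (log2(FC) 4.13, adjusted p = 0.00102, limma). It was at 0 in 2 of the 3 WT mice and at 0.133 FPKM in the other, so it passed the filter only through *Socs3* cKO and its fold depends on the pseudocount.

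Immediate-early genes, which respond quickly to growth factors and stress, were higher in *Socs3* cKO at 10 weeks, as *Il6* was. All 12 listed were up-regulated, against 12.5% of all genes tested. They were led by *Nr4a1* (6.33, adjusted p = 3.86e-07), *Fosb* (5.85, adjusted p = 8.63e-05), *Fos* (5.22, adjusted p = 0.000318), *Atf3* (4.65, adjusted p = 6.19e-06) and *Zfp36* (4.04, adjusted p = 4.89e-05), all by limma. Their FPKM at 10 weeks summed to 102 to 178 in WT and 1144 to 1850 in *Socs3* cKO. Among the *Socs3* cKO mice of that age, replicates 2, 1 and 3 had the same order in both. Their sums were 1460, 1770 and 1850 FPKM, and their *Il6* was 42.8, 43.7 and 82.2 FPKM. Replicate 4 departed from this order, with the lowest sum and the highest *Il6* (109 FPKM). At 2 weeks the sum was 285 to 302 in WT and 134, 783, 709 and 145 in *Socs3* cKO, and none was a DEG (1 lower at an unadjusted p under 0.05). Among the *Socs3* cKO mice at 2 weeks, replicate 3 had a high sum (709 FPKM) and the highest *Il6* (1.35 FPKM). Replicate 4 had a low sum (145 FPKM) and 0.123 FPKM of *Il6*. Replicate 2 had a high sum (783 FPKM) and 0.0684 FPKM of *Il6*, and replicate 1 a low sum (134 FPKM) and 0.684 FPKM of *Il6*. The part of this response in the *Il6* result was not tested.

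Markers of other cell types also moved at 10 weeks. Over all genes tested, 12.5% were up-regulated and 2.43% down-regulated at that age, against 7.24% and 7.19% at 2 weeks. Of 5 macrophage markers 4 were up-regulated (*Itgam*, *Emr1*, *Cd68* and *Csf1r*), and the 5 summed to 247 to 412 FPKM in WT and 578 to 997 in *Socs3* cKO, with none at 0. At 2 weeks they summed to 195 to 229 FPKM in WT and 292 to 639 in *Socs3* cKO, with no DEG. There 2 were higher and 1 was lower at an unadjusted p under 0.05, and *Itgam* went from 3.33 to 3.75 FPKM in WT to 1.39 to 2.85 in *Socs3* cKO. Of 5 endothelial markers 3 were up-regulated at 10 weeks (summed 12.4 to 16.5 against 30.4 to 41.3 FPKM), as were 1 of 5 fibroblast markers, 1 of 5 adipocyte markers (*Lep*) and none of 5 keratinocyte markers, 2 of which were higher at an unadjusted p under 0.05. At that age the 4 neutrophil markers measured had sums of 7.24 to 10.96 FPKM in WT against 3.20 to 8.61 in *Socs3* cKO. Of the 2 high enough to be tested neither was a DEG (1 lower at an unadjusted p under 0.05). None of 5 skeletal muscle markers was a DEG at 10 weeks, but 3 were lower at an unadjusted p under 0.05. They summed to 375 to 689 FPKM in WT and 214 to 411 in *Socs3* cKO. The T cell, mast cell, cartilage and Schwann cell lists had no DEG at that age. Of these, 2 of the 4 cartilage markers tested and 1 of 5 mast cell markers were higher at an unadjusted p under 0.05. At 2 weeks, where *Clcf1* and *Cntfr* were down-regulated, 2 of 5 fibroblast markers were down-regulated (*Col1a1* and *Col1a2*) and 1 was up-regulated (*Dcn*), with a sum of 8228 to 9862 FPKM in WT and 3549 to 5171 in *Socs3* cKO, and 3 of 5 skeletal muscle markers were up-regulated (summed 431 to 649 against 946 to 1513 FPKM). Also at 2 weeks, 2 of 5 T cell markers were up-regulated (*Cd3d* and *Cd3g*, the 5 summing to 17.4 to 25.5 FPKM in WT and 30.1 to 49.4 in *Socs3* cKO), as were 1 of 5 Schwann cell markers (*S100b*, summed 489.8 to 550.3 against 484.9 to 630.3 FPKM) and 1 of 5 keratinocyte markers (*Krt14*, summed 7612 to 8355 against 5744 to 11571 FPKM). Of the 4 cartilage markers tested, 1 was down-regulated (*Col2a1*, the list summing to 186 to 309 FPKM in WT and 31.4 to 186 in *Socs3* cKO). Among mast cell, adipocyte, endothelial and neutrophil markers none was a DEG at 2 weeks, with 5 higher and 2 lower at an unadjusted p under 0.05. The part of other cell types in the differences of *Clcf1*, *Cntf* and *Cntfr* at 2 weeks and in the rise of *Il6*, *Osm* and *Osmr* at 10 weeks was not tested.

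**Figure D5:**
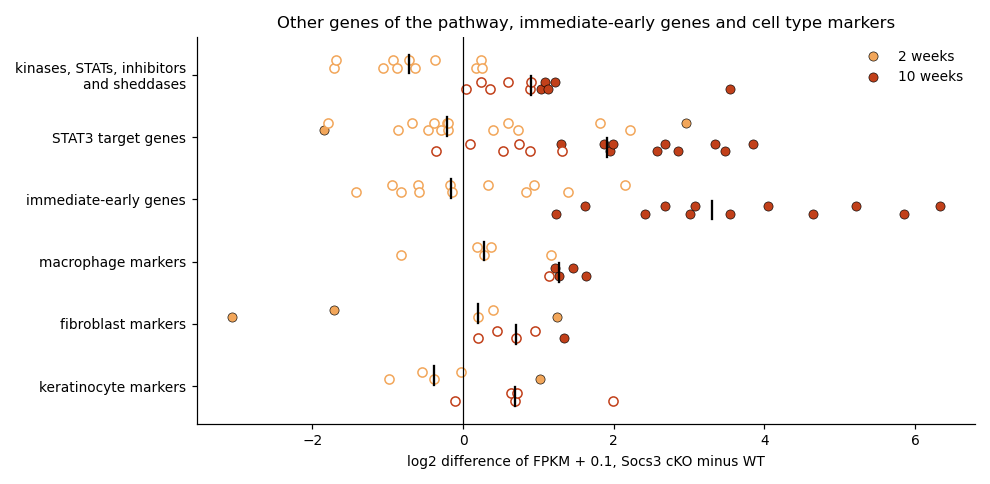
log2(FC) of *Socs3* cKO against WT for each tested gene of 6 lists, at 2 weeks (orange, upper row of each list) and 10 weeks (red, lower row), with filled points for DEGs and a bar at the median of the list. All 12 immediate-early genes lie above 1 at 10 weeks, 10 of 16 STAT3 target genes are filled there, and the keratinocyte markers have no filled point at 10 weeks.

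The genes whose profiles over the 15 mice lay nearest to *Il6* were sought among 13936 genes by the root mean square difference of log2(FPKM + 0.1), each gene centred on its own mean. They were *Cxcl1* (0.88), *Ptgs2* (0.98), *Fosl1* (1.15), *Cxcl2* (1.45) and *Il1b* (1.497), against a median of 3.60 over all genes. *Cxcl1* and *Cxcl2* encode neutrophil chemokines, *Ptgs2* a prostaglandin synthase, *Fosl1* an AP-1 subunit and *Il1b* the cytokine IL-1 beta. Like *Il6* they had mean levels below 1 FPKM in WT at both ages, and they reached 162, 35.4, 42.6, 17.3 and 15.6 FPKM in *Socs3* cKO at 10 weeks. *Cxcl1* was also at a mean of 3.47 FPKM in *Socs3* cKO at 2 weeks. The genes nearest to *Osmr* were *Il13ra1* (0.15), *Ptprc* (0.17), *Ddx3x* (0.19), *H2-M2* (0.20) and *Wwp1* (0.20), against a median of 0.81. *Il13ra1* encodes a chain of the IL-4 and IL-13 receptors and had a mean of 25.3 FPKM in WT and 52.3 in *Socs3* cKO at 2 weeks, and of 24.0 and 58.0 at 10 weeks. *Ptprc* encodes CD45, which marks leukocytes, and its means were 5.52 and 9.98 FPKM at 2 weeks and 5.17 and 13.6 at 10 weeks. These are descriptions over 15 mice that share their groups, with no test.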

How the data were processed

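The members and all gene lists were chosen with earlier results of these data known. The authors sequenced ear RNA as single reads of 50 bases. Per the labels and their processing notes, reads were aligned to mm9 with TopHat2 2.1.0 and Cufflinks was used, its version not given in the sources used here. The deposited unit is FPKM, 1 value for each of 21110 genes per mouse, with no scaling between libraries stated. The authors tested counts with edgeR. Here the files hold FPKM, so log2(FPKM + 0.1) was tested with limma 3.58.1 in R 4.3.3 (trend in the prior variance, 2-sided), within each age for genotype and over all 4 groups for the interaction and age. Single members were also compared with exact 2-sided permutation tests over mice, written in Python 3.11.15 with numpy 2.4.6 and pandas 2.3.3. The study states more WT mice than the 7 used, and the rest were not analysed here. Groups came from the labels, and 1 mouse is 1 replicate. No 2 mice of a group shared more than 1 identical value above 0.

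Depth was taken from genes with 1 transcript, whose values are steps of 1 read when 200 bases are taken off the transcript length. Between 58.0% and 64.6% of low values then lay within 0.05 of a whole read, too few for a count test. Read numbers are estimates, given for members with 1 transcript only. Positions came from GENCODE on mm9, which held 97.3% of the symbols. Named genes were all members, up to 5 DEGs per list by size of log2(FC), *Socs3*, and the 5 genes nearest to *Il6* and *Osmr*. Cell type markers that were DEGs and *Il11ra2* were named after their values were seen. Alternatives were pseudocounts of 1 and 0.01, no filter and a stricter filter, median-of-ratios scaling, quantile normalization, removal of trends with length and GC content, a constant prior variance, a replicate block, a joint fit of the 4 groups and each mouse left out. The limma step was tested on simulated data.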

Additional observations from a re-analysis of the deposited data

Results flagged for a closer look

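The genotype difference changed between the ages for 5 members, by the limma test of the interaction on the log2 scale. The change was 6.62 for *Il6* (7.84 at 10 weeks, 1.22 at 2 weeks, where it was too low for the limma test), 4.74 for *Clcf1* (-2.17 at 2 weeks and 2.57 at 10 weeks), 4.15 for *Il6ra* (-1.18 and 2.98), 3.02 for *Osm* (-0.33 and 2.70) and 2.22 for *Lif* (-1.42 and 0.80). For *Clcf1* every mouse followed this, 4 of 4 *Socs3* cKO below all WT at 2 weeks and 4 of 4 above all WT at 10 weeks. Among 30 groups of 4 mice checked for a stray value in a member, 1 was found: *Lif* in *Socs3* cKO replicate 1 at 2 weeks was 0.084 FPKM, while the other 3 mice lay between 0.481 and 0.522. Chance alone gives about 1 in 20 such groups. The same library had the lowest *Il6ra* and *Il6st* of its group.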

How the results depend on the processing

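Over 1006 recomputed values of single members, 937 kept direction and side of the threshold, 40 lost the call, 13 gained it and 16 changed sign. The count of members that were DEGs at 2 weeks was 2 in place of 1 with median-of-ratios scaling, quantile normalization (both adding *Osmr*) or all 4 groups in one fit (adding *Lif*). With each mouse left out, the count was 4 to 8 at 10 weeks (main 7), 3 to 7 for the interaction (main 5) and 1 to 3 for age in WT (main 3). Signs changed only where the main value was no DEG. At 2 weeks these were *Il11* (0.15, quantile), *Il11ra1* (0.12 with median-of-ratios scaling, 0.98 with length and GC trends removed, -0.195 to 0.006 over mice left out) and *Il6st* (-0.26 to 0.30 over mice left out). At 10 weeks *Lifr* was -0.003 (quantile) and -0.075 (trends removed). With age in WT, *Il6* was -0.83 (trends removed) and -0.16 to 0.88 over mice left out, *Osmr* 0.054 (median-of-ratios) and 0.34 (quantile), and *Lifr* 0.01 (quantile). The *Osmr* interaction was -0.24 (quantile). The causes were not tested.

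The replicate numbers did not pair the mice: deviations of same-numbered mice correlated across genes by -0.04 to 0.14 at 2 weeks and -0.21 to 0.07 at 10 weeks, against -0.14 to 0.08 and -0.24 to 0.17 for other numbers. With the replicate block, 1 member was a DEG at 2 weeks and 8 were at 10 weeks, *Il11ra1* being added (-1.17, adjusted p = 0.00918, limma). Other settings took calls away at 10 weeks. *Il6st* was lost with median-of-ratios scaling, quantile normalization or the trends in length and GC content removed (log2(FC) 0.98 in each case). *Il11* was lost with those trends removed (adjusted p = 0.0107) and *Il6ra* with no filter (adjusted p = 0.0123), both by limma. Depth limits *Il6* in WT, at 1 to 9 reads, and members below 1 FPKM.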
